A study of Mus musculus with 17 samples.

Results

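The microRNAs (miRs) mmu-miR-451, mmu-miR-144 and mmu-miR-486, here miR-451, miR-144 and miR-486, are carried by erythroid cells and red blood cells, and were examined here in mouse kidney after ischemia reperfusion injury (IRI). The 3 miRs were chosen by name out of the 569 mature mouse miRs on the array, with their ratio between IRI and sham already known, so that their own ratio and its course over the days are given as a description, without a p-value. The kidneys came from C57/BL6 mice of 10 to 12 weeks, called female in the sample labels and male in the study's methods, and no transgene or deletion is given for them. The IRI group had 30 min of warm ischemia of 1 kidney, the sham group had surgery without ischemia, and the naive kidneys were untreated. IRI and sham kidneys were taken at 8 times, on days 1, 3, 5 and 7 in the first week and then on days 10, 14, 21 and 30, and values below are listed in that order. Each of the 17 samples was RNA pooled from 3 mice, with 1 pool per arm and day and 1 naive pool, so that no day has a replicate and the 8 days serve as the replicates of an arm.

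miRs are small RNAs that, loaded on an Argonaute protein, pair with messenger RNAs through their seed, bases 2 to 8 counted from the 5′ end. miR-144 and miR-451 are cut from 1 shared transcript that is switched on in red cell precursors. miR-451 is unusual in that its short hairpin is cleaved by an Argonaute protein and not by Dicer, and it is among the most abundant miRs of the mature red blood cell, for which reason it is commonly read as a sign of blood or of haemolysis in a sample. miR-486 is encoded in an intron of Ank1, the gene of the red cell membrane protein ankyrin, and is also made in striated muscle. In pooled tissue, more red cells and more miR per cell cannot be told apart.

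The target sequences of the 3 probes, as the scanner files list them, are shown with the seed in capitals, since the seed is the part that pairs with a messenger RNA, while the probe reads the whole sequence.
miR-451: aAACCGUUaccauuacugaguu
miR-144: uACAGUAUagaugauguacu
miR-486: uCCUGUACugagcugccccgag
The seeds differed from each other, and 0 of the other miRs on the array shared any of them. The miR on the array nearest to miR-451 was miR-295, 8 single-base changes away, the nearest to miR-144 was miR-337-3p at 7 changes, and the nearest to miR-486 was miR-187 at 8 changes. Between the members themselves the distance was 11 changes for miR-451 and miR-144, 12 for miR-144 and miR-486, and 15 for miR-451 and miR-486. GC bases made up 36.4% of miR-451, 30.0% of miR-144 and 63.6% of miR-486.

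In RefSeq's miRNA table (GRCm38.p6) the first 2 targets were identical to mmu-miR-451a at chr11:78073186-78073207 and to mmu-miR-144-3p at chr11:78073047-78073066, both on the plus strand. Their hairpins are printed with the mature arm in capitals, to show that the pair lies close together and that the mature miR-451a runs through the loop of its hairpin.
Mir144: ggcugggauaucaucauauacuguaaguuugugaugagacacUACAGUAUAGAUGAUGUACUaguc
Mir451a: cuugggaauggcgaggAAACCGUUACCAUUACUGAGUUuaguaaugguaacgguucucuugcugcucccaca
Mir144 covers chr11:78073005-78073070 and Mir451a chr11:78073170-78073241, with 99 bases between them on the same strand. The mature arm takes up bases 43 to 62 of the 66 bases of the Mir144 hairpin, on its 3′ side, and bases 17 to 38 of the 72 bases of the Mir451a hairpin. In RefSeq's gene table Mir486 lies within Ank1 on chromosome 8.

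The measured quantity was the fluorescence of 6 spots per miR on 9 arrays. Each of 8 arrays held both pools of 1 day, with IRI in Cy3 and sham in Cy5 and without a dye swap, and the naive pool was read alone in Cy3. A bias of a probe for 1 dye therefore stays in the mean IRI/sham ratio, whereas a constant bias drops out of the slope of the ratio over the days. The median scanner intensity of the 250 empty spots was 185.5 to 515.9 in the IRI channels, 33.0 to 43.9 in the sham channels and 510.9 in naive, so that a weak signal was harder to tell from background in IRI and in naive than in sham. A probe was called above background where its mean over the spots lay more than 3 median absolute deviations (MADs) over the empty-spot median. Levels are given as normalized intensity, with the spread of the spots as a technical error within an array. Levels of different miRs are not compared, since each probe has its own response. Of the miRs of kidney epithelium 11 of 14 were above background in all 17 samples. So were 12 of 15 other miRs abundant in red blood cells and 4 of 5 of fibroblasts and smooth muscle, against 3 of 6 of leukocytes and 0 of 5 of striated muscle. The share among all miRs is not given, so that this count does not check the tissue label.

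miR-451 was high in injured kidney on day 1 and low there from day 10 on, while in sham kidney it was highest on day 30. Its normalized intensity in IRI, from day 1 to day 30, was 832, 291, 200.4, 261, 105, 110.3, 112 and 154. In sham it was 237, 309, 291, 379, 112, 413, 407 and 741 on the same days. The ranges of the arms overlapped, and IRI exceeded sham on day 1 only, although in the processed values it did so on day 10 too (64 against 51). The spot SD was 0.040 to 0.45 on the log2 scale in IRI and 0.064 to 0.21 in sham. The level in IRI was 5.42-fold higher on day 1 than on day 30, whereas in sham it was 3.13-fold higher on day 30 than on day 1.

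In naive kidney the normalized intensity of miR-451 was 92.5, below the sham level on 8 of 8 days and below the 6 IRI levels that were above background. This did not hold in the values processed by the authors, where naive was 60 and lay below IRI on 6 of 8 days and below sham on 7 of 8. The mean difference of the normalized sham level from naive was 1.79 on the log2 scale (SD 0.78, n = 8 days). The naive reading was only 3.00 MADs over the empty spots, and it was made on an array hybridised with 1 dye. In IRI the probe was above background on 6 of 8 days, and day 10 (2.58 MADs) and day 14 (2.68 MADs) were not. In sham it was above background on 8 of 8 days, with the weakest signal on day 10, at 3.75 MADs. The IRI readings of days 10 and 14, being at background, have no order among the low samples.

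Ordered by level, the miR-451 samples began with IRI on day 1 and sham on day 30, and these were separated from each other and from the next by more than 2 SE of the spots. In the processed values their order was reversed, with sham on day 30 at 882 and IRI on day 1 at 753. Sham on days 14 and 21, and sham on day 3 with IRI on day 3 and sham on day 5, were neighbours that did not differ beyond that error. The same held for IRI on day 21 and sham on day 10 at the lower end, beside the IRI readings at background. This error covers the spots of an array and not the mice or the arrays.

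miR-486 showed the same shape with a smaller range. Its normalized intensity in IRI, from day 1 to day 30, was 292, 216, 139, 229.95, 184, 119, 129 and 151. In sham it was 175, 182, 267, 364, 194, 331, 480 and 658 on the same days, and in naive 99.5. IRI was above sham on days 1 and 3 and below it from day 5 on, although on day 10 the gap was within the spread of the spots. The IRI level was 1.94-fold higher on day 1 than on day 30, and the sham level was 3.76-fold higher on day 30 than on day 1. Both differences were larger in the processed values, at 278 against 79 in IRI and 662 against 131 in sham. The probe was above background in all 17 samples, by 3.04 to 35.3 MADs in IRI, by 11.5 to 128 in sham and by 3.73 in naive.

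In normalized intensity both arms exceeded naive in miR-486 on 8 of 8 days, by a mean of 0.81 on the log2 scale in IRI (SD 0.46) and of 1.59 in sham (SD 0.69). The naive level, at 99.5, lay near where the normalization puts a probe without signal, and was read on an array with 1 dye. In the processed values, with naive at 75, sham was above it on 8 of 8 days but IRI on 5 of 8 only. Sham on days 30, 21 and 7 had the highest levels. Only 4 of the 16 neighbouring pairs in the order of levels were separated by more than 2 SE of the spots. The spots disagreed most in IRI on day 1, where their SD was 0.70 on the log2 scale.

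miR-144, although encoded beside miR-451, could not be told from background in any IRI or sham sample. Its normalized intensity was 84.4 to 100.5 in IRI, with a median of 93.0, and 83.8 to 99.3 in sham, with a median of 90.3. These values lie where the normalization puts a probe without signal, and before normalization the probe stood -1.36 to 2.89 MADs from the empty spots over the 16 samples. In naive it was 3.14 MADs over background, with a level of 93.7 and a spot SD of 0.38 on the log2 scale. None of the 16 neighbouring pairs in its order of levels was separated by more than 2 SE. A level below background sets an upper limit and does not show that miR-144 was absent, and no fold is read from it. Its ratio is given only as the reading of a probe at background. Of the 3 miRs, 2 reached the level of 200 in at least 1 sample that was used to call a miR detected, as did 162 of all 569.

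**Figure D1:**
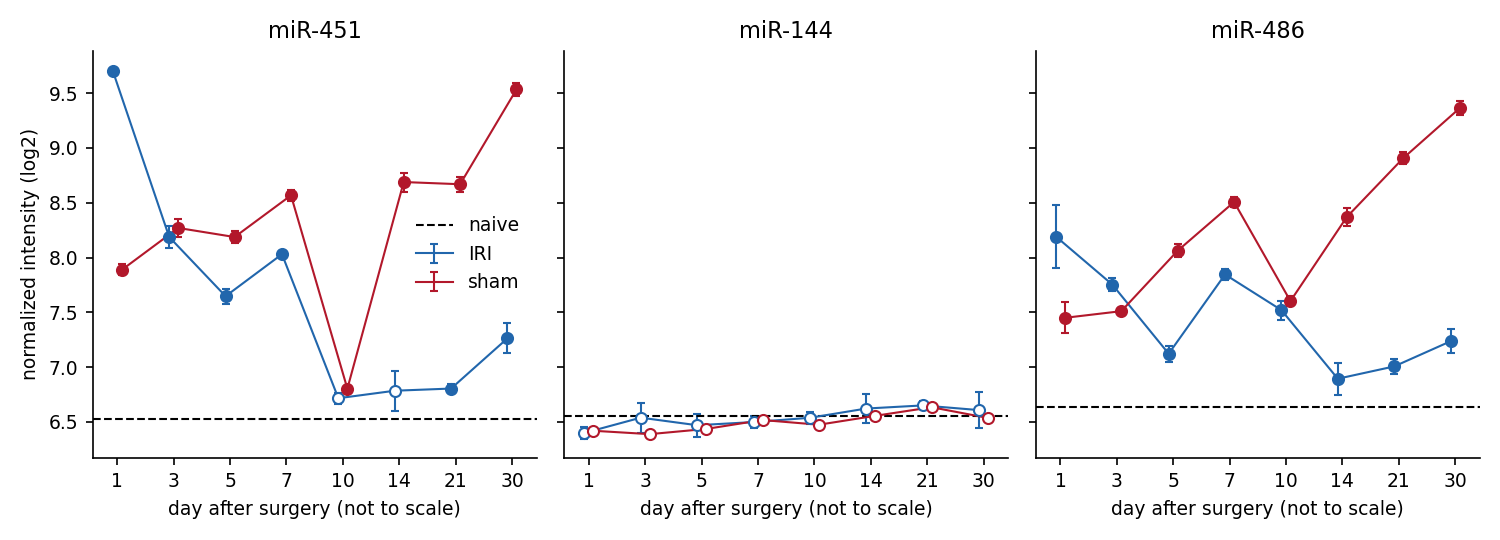
Normalized intensity (log2) of miR-451, miR-144 and miR-486 by day in IRI (blue) and sham (red), with the naive level as a dashed line; bars are the SE of the 6 spots, and open circles are samples in which the probe was not above background. miR-451 and miR-486 are higher in IRI than in sham on day 1 and higher in sham from day 14 to day 30, and miR-144 stays at background in all 16 samples.

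The course of each arm was described by its own slope. The slope of the miR-451 level over log2(day), the change per doubling of the day, was -0.56 (SE 0.12, n = 8 days) in IRI and 0.23 (SE 0.18) in sham. For miR-486 it was -0.22 (SE 0.07) in IRI and 0.36 (SE 0.10) in sham. In the values processed by the authors the slopes for miR-451 were -0.68 (SE 0.17) in IRI and 0.28 (SE 0.28) in sham, and for miR-486 -0.37 (SE 0.13) and 0.44 (SE 0.16). The slopes had the same signs in both sets of values, with an SE nearly as large as the slope for miR-451 in sham.

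The ratio between the arms was next taken within each array. The log2 IRI/sham ratio of miR-451 was, from day 1 to day 30, 1.81, -0.08, -0.54, -0.54, -0.09, -1.90, -1.86 and -2.27. This is 3.51-fold higher in IRI on day 1 and 4.82-fold lower on day 30. The size on day 30 depended on the processing, with a log2 ratio of -3.08 in the processed values and -0.45 before the loess correction. All 6 spots were higher in IRI on day 1, and 0 of 6 were on days 5, 7, 14, 21 and 30. Since the IRI reading was not above background on day 14, only a limit is given there, and no fold is given for day 10. In normalized intensity sham was at least 3.47-fold higher on day 14, taking the weakest miR above background, miR-486, as the limit. This assumes that the level of another probe holds for miR-451. Before the loess correction given below, its log2 ratio on day 14 was -0.42. The mean ratio was -0.68 (SD 1.33, n = 8 days) and its slope -0.79 per doubling of the day (SE 0.12). The sign of the mean depended on the scaling, at 0.01 with the 5S mean subtracted and 0.46 with the spike mean subtracted, and the mean was -1.04 without day 1.

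The log2 IRI/sham ratio of miR-486 was 0.74, 0.24, -0.94, -0.66, -0.08, -1.48, -1.90 and -2.13 over the same days. It was 1.67-fold higher in IRI on day 1 and 4.36-fold lower on day 30, where the log2 ratio was -3.07 in the processed values and -0.34 before the loess correction. On day 1 the ratio was positive in 5 of 6 spots, on day 3 in 6 of 6, on day 10 in 3 of 6, and on days 5, 7, 14, 21 and 30 in 0 of 6. The mean was -0.78 (SD 1.03, n = 8 days), or -0.08 with the 5S mean and 0.37 with the spike mean subtracted, and the slope was -0.59 (SE 0.11). On day 10 the ratio of miR-486 was within the spread of the spots, while that of miR-451 set a reading at background in IRI against a weak one in sham.

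**Figure D2:**
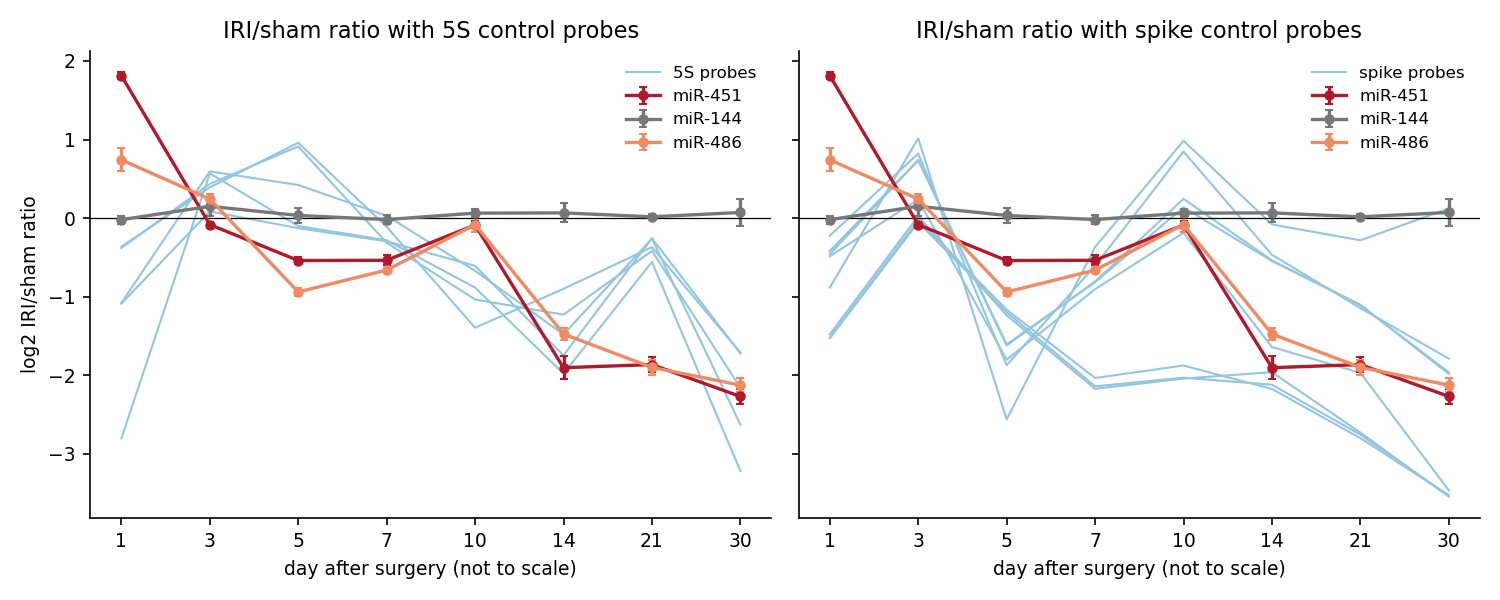
The log2 IRI/sham ratio of the 3 miRs by day, with the SE of the spots, over the single 5S probes (left) and the single spike probes (right) of the same 8 arrays in pale blue. On day 1 miR-451 (1.81) and miR-486 (0.74) lie above every control probe, and on day 30 (-2.27 and -2.13) they lie among them.

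miR-451 and miR-486 followed each other from array to array. Pearson's r of their log2 IRI/sham ratios was 0.95 and Spearman's rho 0.98 over the 8 arrays, and r was 0.93 without the 2 arrays farthest from the median of miR-451. Pearson's r of their levels was 0.84 over the 8 IRI samples and 0.81 over the 8 sham samples. Both miRs of a pair were read on the same array and normalized together, so the points share whatever is common to an array, and the values are given as a description.

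**Figure D3:**
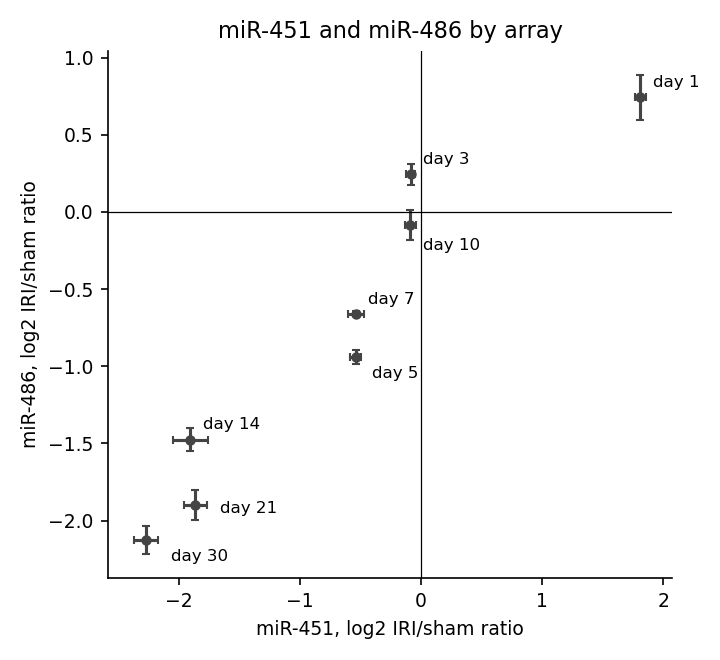
The log2 IRI/sham ratio of miR-486 against that of miR-451, 1 point per array with the SE of the spots in both directions. The 8 arrays lie along a line (r = 0.95) from day 1 at the upper right to day 30 at the lower left.

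The fall of the ratio was set beside control probes on the same arrays, which are not probes for miRs. These were the 5 probes for 5S ribosomal RNA and the 8 of 43 spike-in calibration probes that were above background in all 16 IRI and sham channels, 13 in all. Some of the spike probes are variants of 1 oligonucleotide by name and moved nearly as 1, so that they are not 13 independent readings. The mean log2 IRI/sham ratio of the 5S probes was -1.14, 0.42, 0.41, -0.19, -0.92, -1.47, -0.37 and -2.29 from day 1 to day 30, and that of the spike probes -0.87, 0.44, -1.63, -1.23, -0.49, -1.19, -1.74 and -2.46. The controls thus did not stay at 0, and on day 30 their means were as low as the erythroid miRs, with the single controls at -3.54 to 0.12.

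Over all 8 days the slope was -0.25 (SE 0.22) for the mean of the 5S probes and -0.33 (SE 0.18) for that of the spike probes, against -0.79 for miR-451 and -0.59 for miR-486. The slopes of the single controls ran from -0.52 to 0.16, with 12 of 13 below 0 and 0 of 13 as low as either miR. From day 1 to day 30 the log2 ratio of miR-451 differed by -4.08 and that of miR-486 by -2.87, compared with -1.14 for the 5S mean and -1.59 for the spike mean. This gap lay on day 1, when the ratio of miR-451 stood 2.96 above the 5S mean and 2.69 above the spike mean, and that of miR-486 stood 1.88 and 1.62 above them. Both miRs exceeded 13 of 13 controls on that day, and so did miR-144, at background with a ratio of -0.02, since the highest control stood at -0.22.

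Without day 1 the slopes of the control means were close to those of the erythroid miRs. The slope from day 3 to day 30 was -0.69 (SE 0.18) for miR-451 and -0.66 (SE 0.18) for miR-486, beside -0.71 (SE 0.21) for the 5S mean and -0.61 (SE 0.23) for the spike mean. The single controls ran from -0.93 to 0.10, and 7 of 13 had a lower slope than each of the miRs. Between day 3 and day 30 the log2 ratio differed by -2.19 in miR-451, -2.37 in miR-486, -2.70 in the 5S mean and -2.90 in the spike mean. On day 3 miR-451 was above 0 and miR-486 above 5 of 13 controls, with the gap of miR-451 to the lowest control within the error of the spots. On day 5 miR-451 and miR-486 were below each of the 5S probes, the lowest of which was -0.13, and above each of the 8 spike probes, the highest of which was -1.17. On day 30 miR-451 stood 0.02 from the 5S mean and 0.19 from the spike mean, and was above 6 of 13 controls, and miR-486 was above 7 of 13. On day 21, by contrast, miR-451 was 1.49 and miR-486 1.53 below the 5S mean, while they were 0.13 and 0.16 below the spike mean.

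The comparison with the controls depended on the loess correction, which removes a trend of the ratio with intensity and was fitted on the miRs alone. Before it, the slope from day 3 was -0.51 (SE 0.32) for miR-451 and -0.50 (SE 0.30) for miR-486, and -0.55 to 0.47 for the single controls, of which 1 of 13 was lower than each miR. Over all 8 days the uncorrected slopes were -0.63 (SE 0.20) for miR-451 and -0.44 (SE 0.19) for miR-486, and again 0 of 13 controls were lower. On day 30 the uncorrected log2 ratio was -0.45 for miR-451 and -0.34 for miR-486. From day 1 to day 10 the uncorrected ratios of both miRs were above 0 on every day, at 0.57 for miR-451 and 0.26 for miR-486 on day 5. A ratio below 0 before day 14 thus rests on the correction. On day 1 the highest control was at 0.77 before the correction, below miR-451 at 2.97 and miR-486 at 1.88 but above miR-144 at 0.73. The excess of miR-451 and miR-486 over the controls on day 1 was present with and without the correction, while the number of controls below each miR from day 3 on was 7 of 13 with it and 1 of 13 without.

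With the mean of the 5S probes subtracted from each array, the slope was -0.54 (SE 0.27) for miR-451 and -0.34 (SE 0.25) for miR-486. With the mean of the spike probes subtracted it was -0.45 (SE 0.21) and -0.25 (SE 0.12). Pearson's r of the log2 ratio with the spike mean over the 8 arrays was 0.59 for miR-451 and 0.80 for miR-486, and with the 5S mean 0.31 and 0.37. Spearman's rho with the spike mean was 0.79 and 0.86, and with the 5S mean 0.48 and 0.40. The part of the controls' movement in the ratios of the erythroid miRs was not tested.

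**Figure D4:**
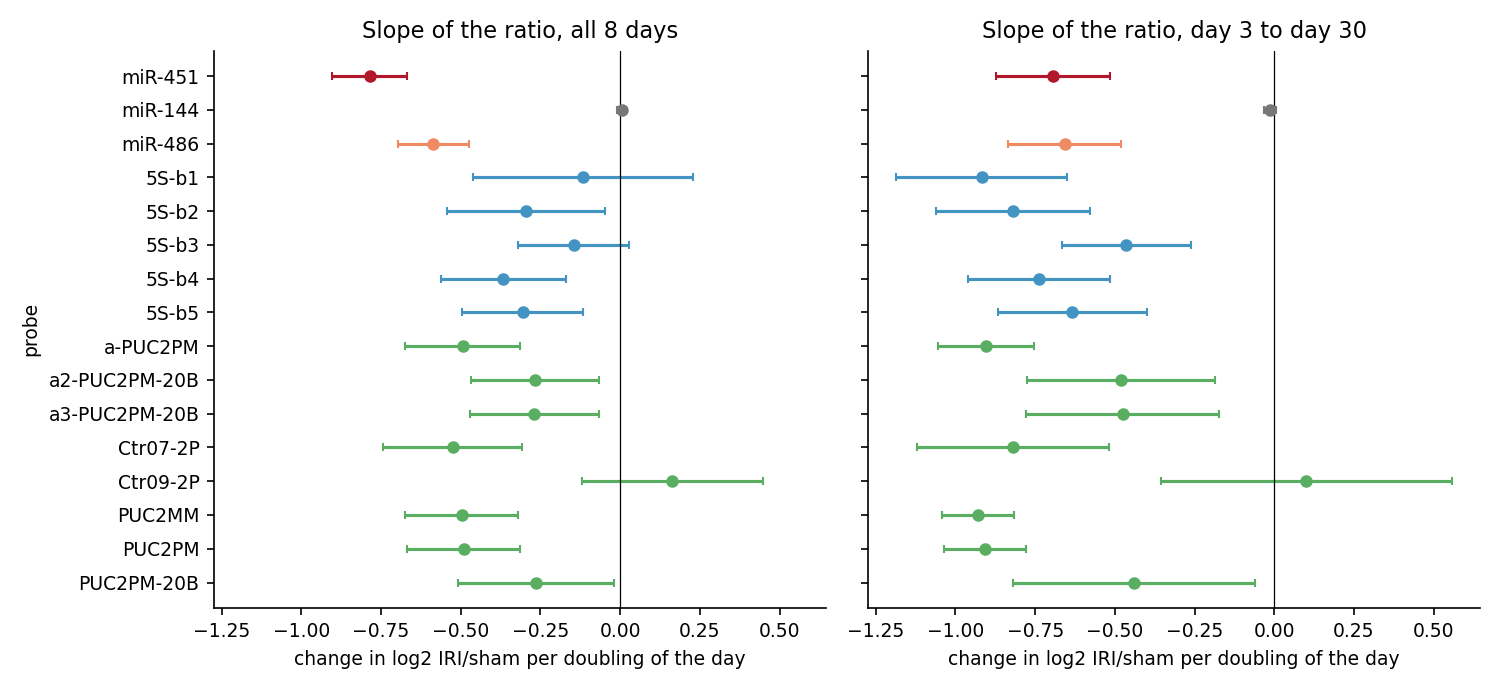
Slope of the log2 IRI/sham ratio per doubling of the day, with its SE over the days, for the 3 miRs, the 5 5S probes (blue) and the 8 spike probes (green), over all 8 days (left) and from day 3 on (right). Over all days miR-451 (-0.79) and miR-486 (-0.59) have the lowest slopes, and from day 3 on 7 of 13 controls lie below each of them.

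For the background of these ratios all 162 detected miRs were fitted with limma. The slope of the log2 IRI/sham ratio passed a Benjamini-Hochberg adjusted p of 0.05 in 4 miRs, 2.47% of those tested, with 34 at an unadjusted p under that value. Of these, 2 (1.23%) had a rising ratio and 2 (1.23%) a falling one, and as the falling ones were the chosen miR-451 and miR-486, nothing is read from this count. The median slope over all 162 was close to 0, at -0.001. The mean ratio passed in 59 miRs (36.4%), of which 30 (18.5%) were higher in IRI and 29 (17.9%) lower. These counts moved with the scaling of the channels, with 131 higher and 0 lower when the spike mean was subtracted and 44 higher and 1 lower with the 5S mean.

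Apart from miR-451 and miR-486 themselves, the detected miRs whose ratio was most like that of miR-451 over the 8 arrays were miR-145 (r = 0.92), miR-194 (r = 0.90) and miR-187 (r = 0.89). For miR-486 they were miR-145 (r = 0.84), miR-805 (r = 0.84) and miR-377 (r = 0.83). miR-145, known from smooth muscle, had a log2 ratio of 1.22 on day 1 and -1.45 on day 30, with a slope of -0.43 (SE 0.10, limma adjusted p = 0.073). miR-194, known from kidney and gut epithelium, had 0.15 on day 1 and -1.16 on day 30 and a slope of -0.26 (SE 0.06, limma adjusted p = 0.057). On day 1 the ratio of miR-187 was 0.65, that of miR-805 -0.69 and that of miR-377 -0.33, and on day 30 they were -1.09, -3.75 and -2.29. miR-187 had a slope of -0.32 (limma adjusted p = 0.17), miR-805 of -0.61 (limma adjusted p = 0.065) and miR-377 of -0.29 (limma adjusted p = 0.15), so that none of the 5 passed the threshold. With the processed values 4 of the 5 passed (limma adjusted p = 0.049 for miR-145, 0.036 for miR-194, 0.049 for miR-805 and 0.022 for miR-377), where 8 of the 114 miRs detected there did. With day in place of log2(day) miR-805 and miR-377 passed, where 14 of all 162 did. miR-194 also passed with a floor of 200 and without day 3, and miR-805 without day 1. The 5 were picked for a ratio like the falling ones on the same 8 arrays. Their slope tests are therefore not independent of that choice, and nothing is read from them.

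Other miRs that are abundant in red blood cells, most of them also common in other tissues, were read beside miR-451 and miR-486. Of 15 such miRs on the array 12 were detected, and their slopes ran from -0.18 to 0.18, with a median of -0.01. Of these 0 of 12 passed the test of the slope, a count that says little where 2.47% of all miRs passed. In the mean ratio 6 of 12 were higher in IRI and 4 lower, against 36.4% of all miRs called in either direction. The higher ones with the largest ratio were miR-15b at 1.53, miR-25 at 1.18, miR-183 at 0.70 and miR-92a at 0.63 on the log2 scale (limma adjusted p between 0.00018 and 0.012). The 4 lower ones were miR-107 at -0.61, miR-185 at -0.60, miR-103 at -0.58 and miR-22 at -0.52. All 4 of these calls were lost with the spike mean subtracted, and at most 1 was kept with the 5S mean subtracted. miR-16, among the most abundant in blood and in many tissues, had a mean of 0.06 (SE 0.07, limma adjusted p = 0.51) and a ratio of 0.13 on day 1. miR-25 and miR-92a were higher in IRI on day 1, at 1.67 and 1.17, but also on day 30, at 1.44 and 0.65. The 3 miRs known to decline as red cell precursors mature, miR-221, miR-222 and miR-24, were detected and 0 of 3 passed either test, where 36.4% of all miRs passed in the mean and 2.47% in the slope.

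The miRs of other cells were read for whether they moved with the erythroid ones. Of the leukocyte miRs 4 of 6 were detected, and 4 of 4 were higher in IRI in the mean ratio, with miR-155 at 1.52, miR-146a at 1.27, miR-223 at 0.98 and miR-150 at 0.92, where 18.5% of all miRs were called higher. With a floor of 200 before the ratio 3 of these 4 calls were lost (limma adjusted p = 0.066 for miR-146a, 0.20 for miR-223 and 0.056 for miR-150), and those of miR-146a and miR-150 were also lost without day 7, 14, 21 or 30. Of the fibroblast and smooth muscle miRs 3 of 5 were higher, where 18.5% of all miRs were called higher. They were miR-199a-3p at 1.87, miR-214 at 1.16 and miR-199a-5p at 0.43, and of these the call of miR-199a-3p alone held in all 18 alternatives. The other members of that list, miR-143 and miR-145, were both at -0.13 and did not pass. Of the kidney epithelial miRs 6 of 11 detected were lower in IRI, with miR-200a at -1.11, miR-192 at -0.88, miR-194 at -0.76 and miR-429 at -0.51, where 17.9% of all miRs were called lower. The call of miR-200a was lost in 7 of 18 alternatives, of miR-192 in 2, of miR-194 in 3 and of miR-429 in 12. These 4 epithelial ratios changed sign when the spike mean was subtracted, and 0 of 4 passed when the 5S mean was subtracted. The endothelial miR-126-3p had a mean of -0.03 and did not pass.

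In the slope 1 leukocyte miR and 1 fibroblast miR passed, both with a rising ratio, as did 1.23% of all miRs. The ratio of miR-146a, a miR of activated leukocytes, had a slope of 0.68 (SE 0.11, limma adjusted p = 0.023), and that of miR-199a-3p, a miR of fibroblasts, had 0.39 (SE 0.07, limma adjusted p = 0.026). On the list of miR-199a-3p 1 of 5 had a slope below 0, miR-145 at -0.43, which did not pass. The call of miR-146a was lost in 7 of 19 alternatives (highest limma adjusted p = 0.11) and that of miR-199a-3p in 12 of 19 (highest limma adjusted p = 0.18), among them for both median scaling, all miRs tested, and the fits without day 3, 7, 14, 21 or 30. Their ratios on day 30 were 3.30 and 2.79 on the log2 scale. Of the kidney epithelial miRs 9 of 11 had a slope below 0, down to -0.27, as did 82 of all 162, and 0 of 11 passed, where 1.23% of all miRs passed with a falling ratio.

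Since miR-486 is also made in striated muscle, the miRs of that tissue were read beside it. Of 6 named, 5 were on the array under those names and 2 reached the level of 200 in some sample, miR-1 in IRI and miR-133b in naive alone. miR-1 passed neither the test of the mean nor that of the slope, and miR-133b, at 85.0 to 103 in both arms, could not be tested in a useful way. 0 of 5 were above background in all 17 samples, and 1 was in none. Their summed signal over background was 181 to 1016 scanner units in the IRI channels and 6.70 to 44.9 in the sham channels. These raw sums were read in different dyes and are not compared between the arms. On day 10 the probe of miR-144, at background, read 193 units over the empty spots in IRI and 3.73 in sham. After normalization the mean log2 ratio was 0.11 for miR-1 and -0.01 for miR-133b. Of the 5 muscle miRs, miR-1 was above background in 8 of 17 samples, with a log2 ratio of 0.90 on day 1 and 0.05 on day 30, and miR-133b was above background in 3 of 17. The part of other cell types in the ratio of the erythroid miRs was not tested.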

How the data were processed

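The authors deposited the scanner intensity of each spot of 9 two-colour or one-colour arrays, neither background-corrected nor normalized, and a table of processed intensity values on a linear scale, 1 per miR and sample, for which no processing step is described in the labels or methods. The members and the lists of cell type miRs were chosen with earlier results of these data known. The channels of the day 5 array are named only by letter in the deposited file, and were assigned through the processed columns of the same samples (r with its own channel 0.998 for IRI and 0.999 for sham, and 0.953 and 0.941 with the other).

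Spot intensities were corrected by normexp (offset 50), averaged over 6 spots, put on the log2 scale, normalized within arrays by loess with control probes at weight 0, and quantile-normalized between arrays on the mean of both channels. The ratio was fitted over 8 arrays with limma 3.58.1 in R 4.3.3 (mean, and slope over log2(day), Benjamini-Hochberg adjustment over 162 miRs that reached 200 in at least 1 sample). The array is the pairing of the arms, since the IRI and sham pools of a day were hybridised together. Named were the 3 members, the 3 miRs other than the members most like miR-451 and miR-486 in the ratio (those most like miR-144, at background, are not given), and of each list at most 4 miRs past 0.05, and miR-16, miR-126-3p, miR-1, miR-133b and the 4 red cell miRs lower in IRI were added after their values were seen. p-values measure the spread between days, which includes change over time. The precision is limited by the number of arrays and pools. The fits were tested on simulated data. Alternatives were the processed values, plain background subtraction, median scaling, centring on 5S or spike probes, the median of the spots, a floor, day in place of log2(day), no array block, all miRs, an intensity trend with robust variance, and each day left out. The spike probes used for centring, and the fit from day 3, were chosen after seeing the data.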

Additional observations from a re-analysis of the deposited data

Results flagged for a closer look

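Among the miRs of other cell types, 2 had an IRI/sham ratio whose slope over log2(day) passed the test. The slope was 0.68 per doubling of the day (0.675431 before rounding) for miR-146a, with a log2 ratio of -0.11 on day 1 and 3.30 on day 30, and higher in IRI on 7 of 8 days. It was 0.39 (0.388104 before rounding) for miR-199a-3p, with 0.70 on day 1 and 2.79 on day 30, and higher in IRI on 8 of 8 days. Neither call was stable, that of miR-146a being lost in 7 of 19 alternatives, such as median scaling (limma adjusted p = 0.11) or without day 30 (limma adjusted p = 0.099), and that of miR-199a-3p in 12 of 19, such as with the processed values (limma adjusted p = 0.082). No level or ratio of miR-451, miR-144 or miR-486 in an arm was an outlier by Dixon's test.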

How the results depend on the processing

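The slopes of the log2 IRI/sham ratio of miR-451 and miR-486 were negative in 16 of 16 alternatives each on the log2(day) scale, from -1.03 to -0.45 and from -0.82 to -0.25. These slopes are a description, since the ratios were known beforehand, and without the array block they equal the main ones by construction. In the order miR-451, miR-486, they were -0.96 and -0.81 with the processed values, -1.03 and -0.82 with plain background subtraction, -0.65 and -0.46 with median scaling, -0.54 and -0.34 centred on the 5S probes, -0.45 and -0.25 centred on the spike probes, and -0.62 and -0.42 with a floor of 200. With each day left out in turn they ran from -0.83 to -0.69 and from -0.66 to -0.56. Without day 10 they were -0.81 and -0.61, and without day 14 -0.75 and -0.58. The mean ratio of miR-451 was 0.46 centred on the spike probes and 0.01 centred on 5S, against -0.68, and that of miR-486 was -0.08 centred on 5S. The mean ratio of miR-486 was 0.37 centred on the spike probes, against -0.78, and that of the 5S probes was then 0.45, against -0.69. For miR-144, at background, the mean and slope were 0.47 and -0.15 with the processed values, 0.31 and 0.17 with plain subtraction, 0.74 and 0.25 centred on 5S and 1.19 and 0.34 centred on the spikes, and its slope was 0.036 with median scaling.

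Of 162 miRs, the number whose mean ratio passed the threshold was 131 centred on the spike probes, 30 with the floor, 100 with all 569 miRs tested and 26 to 59 with each day left out (30 without day 7, 29 without day 14, 26 without day 21, 37 without day 30). With median scaling 36 were higher in IRI and 9 lower. The number whose slope passed, 4, was 8 with the processed values (of the 114 miRs detected there), 0 with median scaling, 7 centred on 5S, 14 centred on the spikes, 14 with day in place of log2(day), 0 with all miRs, and 0 to 19 with each day left out (19 without day 1, 2 without day 3, 1 without day 7, 1 without day 14, 0 without day 21 and 0 without day 30). Without the array as a block, that is without the pairing of the arms, 51 means and 2 slopes passed. The mean ratios of miR-200a (0.041), miR-192 (0.27), miR-194 (0.39) and miR-429 (0.64) and the slopes of miR-194 (0.068), miR-187 (0.015) and miR-377 (0.037) changed sign when centred on the spike probes, and the mean of miR-429 (0.19) also when centred on 5S. The cause was not tested for any of these.

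The spots of an array give only its technical error, there is 1 pool per arm and day, and the dyes were not swapped. In IRI the empty spots were 185.5 at the lowest against at most 43.9 in sham. miR-144 in both arms, and miR-451 in IRI on days 10 and 14, were not above background, which limits what could be read of them.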
